A study of Mus musculus with 25 samples.

Results

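The accessible sites at 10 genes of the EGF and FGF receptor pathway were followed through the growth factor and virus conditions of cultured mouse astrocytes. The genes were the receptors Egfr, Fgfr1, Fgfr2 and Fgfr3, the feedback inhibitors Spry1, Spry2, Spry4 and Dusp6, and the ETS transcription factor genes Etv4 and Etv5. An ATAC-seq peak, an interval where the transposase Tn5 cut open chromatin, was assigned to a gene when the nearest protein-coding transcription start in the mm10 GENCODE annotation belonged to that gene and lay within 100 kb. This rule took 52 of the 45672 peaks, of which 17 were promoter peaks (within 3 kb of the start) and 35 were distal. A nearest start is an assignment by distance only, so none of the distal peaks is known to act on the gene it is listed under.

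EGF binds the receptor tyrosine kinase EGFR, and bFGF (also called FGF2) binds the FGF receptors. Both kinds of receptor feed the Ras, RAF, MEK and ERK kinase cascade, which in astrocytes and neural progenitors favours proliferation. The cascade induces its own brakes, the Sprouty proteins and the ERK phosphatase DUSP6, together with ETV4 and ETV5, whose genes are repressed by the DNA-binding protein CIC until ERK inactivates it. Neurog2 is a proneural bHLH factor that binds E-box motifs and drives astrocytes towards a neuronal fate, and Hmgb2 is a chromatin protein that bends DNA.

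Astrocytes came from the cerebral cortex of wild-type C57BL/6J mice, taken at postnatal days 5 to 6 according to the growth protocol and days 6 to 8 according to the series design. They were expanded with 10 ng/ml EGF plus 10 ng/ml bFGF (EGF + bFGF culture) or with 10 ng/ml bFGF alone (bFGF culture). Each culture was transduced with MLV-derived retroviruses that used a CAG promoter, and fluorescent cells were sorted after 48 h. The viruses drove a fluorescent reporter only (Control), Neurog2, Hmgb2, or both genes (Neurog2 + Hmgb2). Per the paper, the Control and Hmgb2 viruses carried GFP and the Neurog2 virus dsRED, and both genes came from separate viruses given together. Comparisons with and without Neurog2 therefore also differ in reporter, and those with both genes in the number of viruses. The part that these differences play was not tested. The 8 groups held 3 libraries each, except Hmgb2 in EGF + bFGF culture with 4, 25 in all. Retroviruses of this kind integrate only in dividing cells, and the controls carried such a virus too. Whether the replicate libraries derive from different mice or flasks is not stated in the labels, and the p-values below therefore measure the spread between libraries, which may be technical.

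Levels are the deposited rlog values, a log2 scale on which a read count per peak has been adjusted for library size and shrunk where counts are low. A difference of 1 is a doubling on this shrunken scale, and the number of reads behind each value is unknown. Library medians lay between 4.56 and 4.67. bFGF Neurog2 replicate 2 was the least like its own group, with a mean correlation of 0.936 across peaks. The promoters of 7 of 9 astrocyte markers were measured, and their mean level per library ran from 5.70 to 6.14 in EGF + bFGF culture and from 5.44 to 5.92 in bFGF culture, with no marker passing the test between cultures. Averaged over viruses, their median difference was -0.19 (bFGF minus EGF + bFGF), beside 0.01 over the promoters of 12274 genes. The 7 ran from -0.68 to -0.19 in Neurog2 cells and from -0.21 to 0.22 in Hmgb2 cells. Of other cell types, 4 of 6 oligodendrocyte lineage markers (3.84 to 4.25 per library), 2 of 6 microglial (3.87 to 4.66), 1 of 5 endothelial (5.32 to 6.29) and 4 of 6 mural or fibroblast markers (5.04 to 5.43) had a promoter peak. The defining markers Sox10, Mog, Aif1, Cx3cr1, P2ry12, Pecam1, Cldn5 and Rgs5 had none, and neither did the astrocyte markers S100b and Aldoc.

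The main promoter peak of each of the 10 genes had an rlog level of at least 5.04 in every library. Levels of different peaks can only be compared per length, so the rlog value minus the log2 of the peak width in kb was used for that purpose. On this per-kb scale the promoter of Etv5, an ETS activator induced by FGF signalling, was highest at 7.12 ± 0.17 (SD, n = 25), above 95.7% of all promoter peaks. Spry2, a Sprouty inhibitor of receptor tyrosine kinase signalling, followed at 6.79 ± 0.18, and Dusp6 at 6.48 ± 0.17. The other 7 genes lay close together, from Etv4 at 6.07 ± 0.22 through Fgfr1 (6.02 ± 0.26), Fgfr2 (5.96 ± 0.22), Egfr (5.92 ± 0.17), Spry4 (5.84 ± 0.27) and Fgfr3 (5.68 ± 0.19) to Spry1 at 5.61 ± 0.29. Each gene's range over libraries overlapped that of its neighbours in this order.

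The promoter windows were searched for short motifs on both strands, to show which known recognition letters they carry. The CIC octamers (TGAATGAA or TGAATGGA) were found in 6 of the 17 promoter peaks, against 5.44% of all promoter peaks, and in 6 of the 35 distal peaks, against 6.03% of all distal peaks. The promoter peaks holding them belonged to Etv4 (3 matches), Dusp6 (2, both in exon 1), Spry1, Spry4, Etv5 and Fgfr1. The Dusp6 peak is wide, and among 43 promoter peaks within 10% of its width 27.9% held a CIC octamer and 9.30% held at least 2. At the 4 peaks with 1 match each, 3.84% to 7.76% of promoter peaks of like width held one. Each set of peaks of like width, here and below, includes the peak it is set beside.

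The Etv4 promoter peak, chr11:101784475-101785531 in mm10, held the most matches. Among 2369 promoter peaks within 10% of its width, 6.33% held a CIC octamer and only 3 peaks (0.127%), the Etv4 peak among them, held at least 3.

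Part of this Etv4 promoter is shown because it carries 2 of the 3 octamers close together, 176 and 195 bases before the transcription start at 101785310. Another annotated Etv4 start lies further upstream, at 101785371, and is nearer to them. It is chr11:101785423-101785531 on the plus strand of mm10, read from the GRCm38 genome sequence, with the octamers (on the minus strand, so reversed) in capitals. A match of letters is a description of the sequence and not a measured binding site.
Etv4 promoter: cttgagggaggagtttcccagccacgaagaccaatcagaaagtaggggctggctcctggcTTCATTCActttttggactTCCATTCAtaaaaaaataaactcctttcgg

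**Figure D1:**
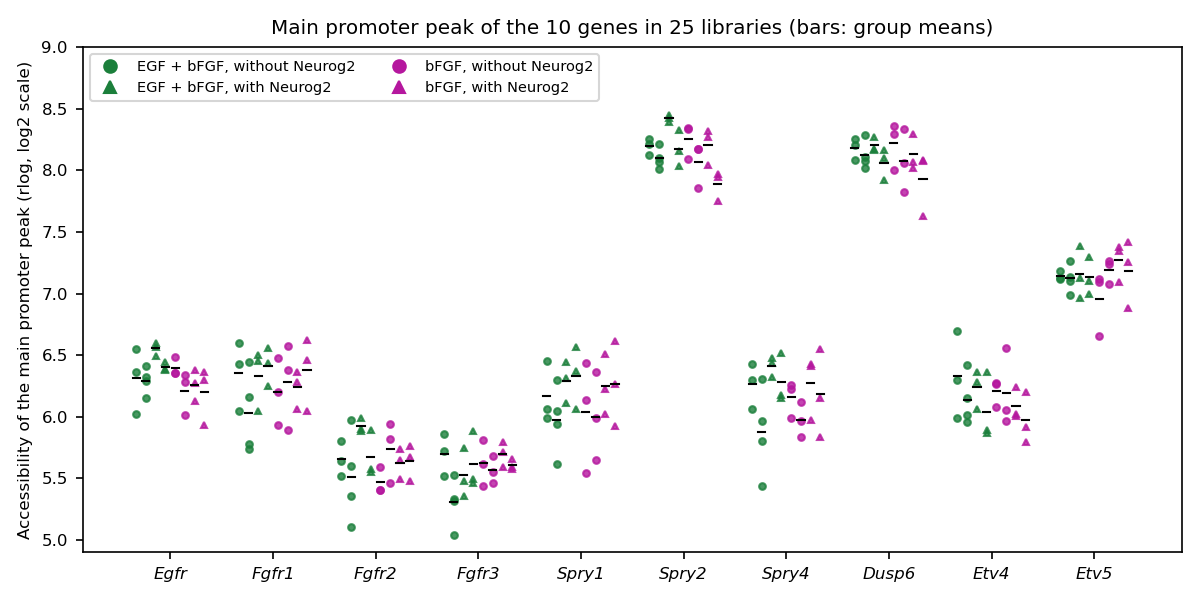
The main promoter peak of each of the 10 genes (x axis) in all 25 libraries (points), as rlog levels on the y axis. The EGF + bFGF and bFGF libraries overlap at every gene, and Spry2 and Dusp6 (means 8.16 and 8.11) have the highest levels before width is taken into account.

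The first question was whether the accessibility of the receptor and feedback genes differed between cells expanded with bFGF alone and with EGF + bFGF. With limma fitted over all 45672 peaks and Benjamini-Hochberg adjustment, none of the 52 peaks differed between bFGF and EGF + bFGF culture in any virus condition. In Control cells 0 of 52 passed an adjusted p of 0.05 (background over all peaks 0%), with 4 at an unadjusted p under 0.05 (7.36% of all peaks). In Neurog2 cells 0 of 52 passed (background 0.0591%, 27 peaks), with 7 unadjusted (16.2% of all peaks). In Hmgb2 cells 0 of 52 passed (background 0%), with 2 unadjusted (3.44% of all peaks). In Neurog2 + Hmgb2 cells 0 of 52 passed (background 0%), with 6 unadjusted (4.46% of all peaks). Averaged over the 4 viruses, 0 of 52 passed (background 0.519%, 237 peaks), with 10 unadjusted (19% of all peaks). The culture comparison called few peaks anywhere, so a count of 0 among 52 lies near the background.

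No receptor promoter passed between the cultures. The main Egfr promoter peak (chr11:16751884-16753211) had a lowest, median and highest level of 6.03, 6.39 and 6.60 in the 13 EGF + bFGF libraries and 5.93, 6.32 and 6.48 in the 12 bFGF libraries. The ranges overlapped nearly fully, and the difference averaged over viruses was -0.12 ± 0.06 (SE, adjusted p = 0.346). The main promoter differences were -0.01 at Fgfr1, -0.07 at Fgfr2 and 0.09 at Fgfr3. The adjusted p of these means was at least 0.346 at all 4. Single viruses gave wider values, none of which passed. The Egfr promoter measured 6.57, 6.60 and 6.50 in EGF + bFGF Neurog2 libraries against 6.13, 6.27 and 6.38 in bFGF Neurog2 libraries. These groups did not overlap, and the difference was -0.29 (adjusted p = 0.306). In Control, Hmgb2 and Neurog2 + Hmgb2 cells it was 0.09, -0.08 and -0.20. Non-overlap of groups this small is a weak sign by itself, here and in the single comparisons below, and its share over all peaks is not given. The Fgfr2 promoter measured 5.89, 5.90 and 5.99 against 5.49, 5.74 and 5.65 in Neurog2 libraries, again without overlap (-0.30, adjusted p = 0.396). Its difference was 0.23 in Hmgb2 cells, where those of Fgfr1 and Fgfr3 were 0.25 and 0.26, so the sign varied between viruses.

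The feedback inhibitors gave the same kind of values. The Spry2 promoter ran from 8.01 through 8.21 to 8.45 in EGF + bFGF culture and from 7.75 through 8.13 to 8.35 in bFGF culture, a difference of -0.12 (adjusted p = 0.318). The Dusp6 promoter ran from 7.92 through 8.16 to 8.28 and from 7.63 through 8.07 to 8.36, a difference of -0.05 (adjusted p = 0.737). Spry1 and Spry4 differed by -0.05 and -0.06. Among the targets, the Etv5 promoter ran from 6.96 through 7.12 to 7.38 and from 6.65 through 7.18 to 7.41, a difference of 0.01 (adjusted p = 0.951), and Etv4 differed by -0.07 (adjusted p = 0.722). The standard errors of the 10 main promoters lay between 0.06 and 0.11, and differences of that order cannot be told from 0 with these libraries.

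Over all 52 peaks the culture difference averaged over viruses ran from -0.34 to 0.40 with a median of -0.05, beside a median of 0.00 over all 37211 peaks assigned by the same rule. It was positive at 19 of the 52. The promoter peaks had a median of -0.05 and the distal peaks of -0.07.

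**Figure D2:**
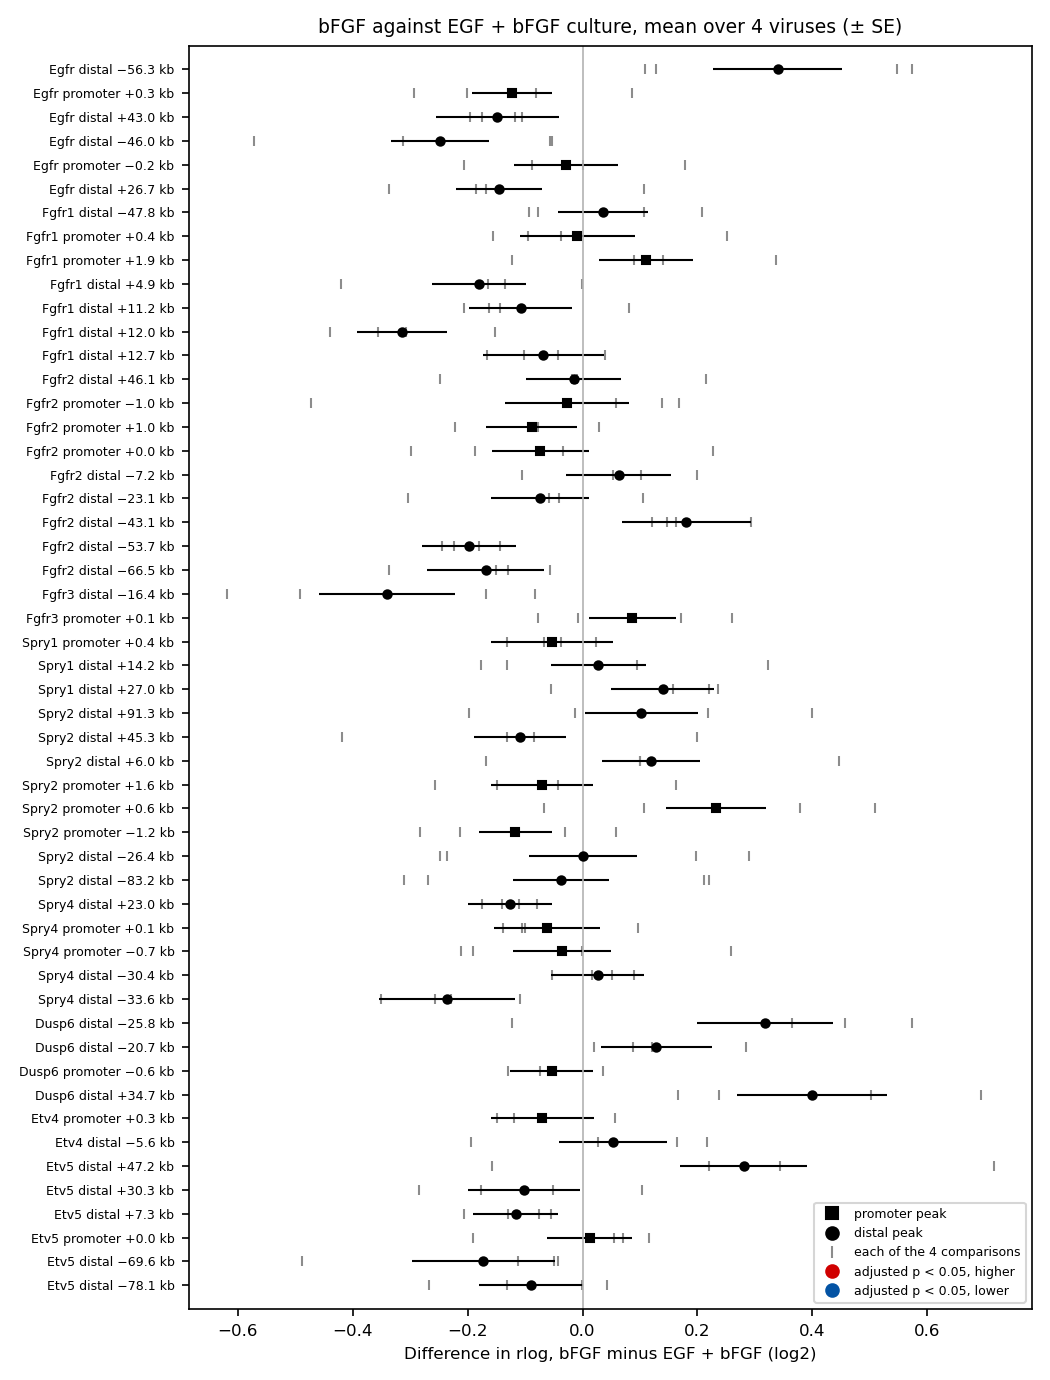
Difference in rlog between bFGF and EGF + bFGF culture (x axis, log2) for each of the 52 peaks (rows), averaged over the 4 viruses. Squares are promoter peaks, circles distal peaks, bars the SE and grey ticks the 4 single viruses, and no peak is coloured because none passed. The means lie between -0.34 and 0.40.

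The site nearest to passing was an intronic peak of Fgfr1, a receptor that binds bFGF, at +12 kb (chr8:25544130-25544470). This offset is counted from an internal start at 25532281, while the gene begins at 25513654. The site was compared in each virus condition. It measured 4.03, 4.02 and 3.99 in EGF + bFGF Control libraries against 3.99, 3.65 and 3.94 in bFGF Control libraries. It measured 4.00, 3.73 and 3.92 against 3.51, 3.57 and 3.50 in Neurog2 libraries. The Neurog2 groups did not overlap. In Hmgb2 cells the values were 3.96, 3.49, 3.80 and 3.70 against 3.50, 3.22 and 3.56, and these overlapped. In Neurog2 + Hmgb2 cells they were 4.17, 3.99 and 3.93 against 3.35, 3.73 and 3.68, with no overlap. The difference was negative in all 4 virus conditions (-0.15, -0.36, -0.31 and -0.44), averaged -0.31 ± 0.08 (SE), and missed the threshold (adjusted p = 0.0515).

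This near miss depended on single libraries. Leaving out each library in turn gave differences from -0.33 to -0.28 and adjusted p from 0.0234 to 0.106. The adjusted p went under 0.05 without EGF + bFGF Hmgb2 replicate 2, bFGF Control replicate 1, bFGF Hmgb2 replicate 3, bFGF Neurog2 + Hmgb2 replicate 2 or bFGF Neurog2 replicate 1. Without the last of these, 5 of the 52 peaks passed, the Fgfr1 peak together with Egfr at -56.3 kb, Dusp6 at +34.7 and -25.8 kb and Fgfr3 at -16.4 kb.

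Those other peaks were weak or variable. The Egfr peak at -56.3 kb had a lowest, median and highest level of 2.82, 3.21 and 3.55 in EGF + bFGF culture and 2.98, 3.47 and 4.38 in bFGF culture (difference 0.34 ± 0.11, adjusted p = 0.104), where the highest value was bFGF Neurog2 replicate 2. The Dusp6 peak at +34.7 kb had 2.71, 3.08 and 4.09 against 3.08, 3.67 and 4.31 (difference 0.40 ± 0.13, adjusted p = 0.0999), and its highest value was again bFGF Neurog2 replicate 2. The intergenic Fgfr3 peak at -16.4 kb (chr5:33704675-33705922) had 5.71, 6.16 and 6.84 against 4.84, 5.92 and 6.35 (difference -0.34 ± 0.12, adjusted p = 0.121), and its lowest value came from that library too. All 3 pairs of groups overlapped, and the part that this library plays in the averages, beyond the values without single libraries, was not tested. In the single conditions, the smallest p of Control cells belonged to a Spry2 promoter peak at +0.6 kb (0.51 ± 0.18, adjusted p = 0.541), that of Neurog2 cells to the Egfr intron peak at -46.0 kb (-0.57 ± 0.17, adjusted p = 0.124), and that of Hmgb2 cells to the Fgfr2 peak at -1.0 kb (-0.47 ± 0.21, adjusted p = 1.00).

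Member peaks passed the test only in comparisons with and without Neurog2. Spry1, an inhibitor of FGF receptor signalling, gained signal at a distal site, Egfr gained it inside its intron 1, and sites of Fgfr1, Fgfr2, Fgfr3, Spry2 and Spry4 lost it. Averaged over both cultures and both Hmgb2 states, 9 of 52 peaks passed, 3 higher and 6 lower. The background for either direction was 22.0% of all peaks, with 11.4% higher and 10.6% lower, so 9 of 52 is no more than the background share. Of the 17 promoter peaks 0 rose and 1 fell, where 5.13% of all promoter peaks rose and 3.46% fell. Of the 35 distal peaks 3 rose and 5 fell, where 13.8% and 13.9% of all distal peaks did. The median over the 52 was -0.02.

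In the single comparisons the counts were smaller. Neurog2 against Control called 2 of 52 in EGF + bFGF culture (background 5.01%) and 1 of 52 in bFGF culture (background 1.25%). Neurog2 + Hmgb2 against Hmgb2 called 4 of 52 in EGF + bFGF culture (background 7.66%) and 1 of 52 in bFGF culture (background 2.20%). None of these calls reached a log2 difference of 1 on the shrunken rlog scale. The study set its limit for more or less accessible sites (MAS and LAS), a fold change above 2, on a DESeq2 analysis of counts. A call that stays under 1 here can therefore still be a MAS or LAS there.

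**Figure D3:**
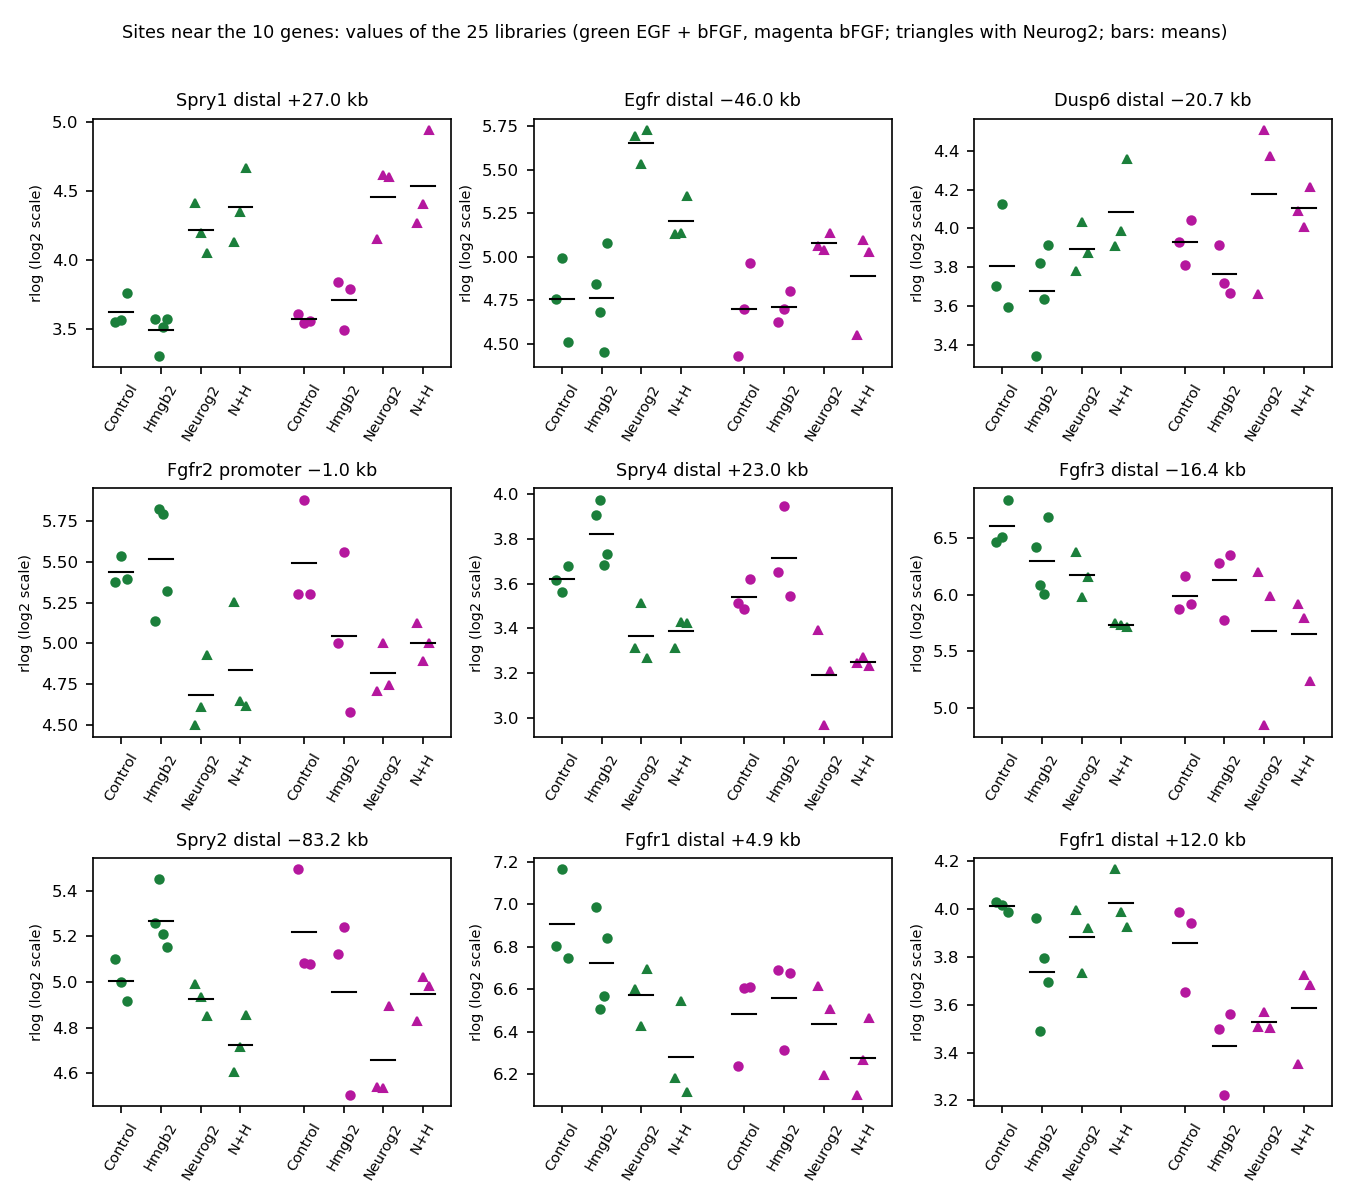
The rlog levels (y axis, log2 scale, its range differing between panels) of 9 named sites in the 8 groups (x axis, N+H standing for Neurog2 + Hmgb2). Points are libraries, bars group means, green EGF + bFGF and magenta bFGF culture, and triangles carry Neurog2. At Spry1 +27.0 kb the triangles (4.05 and above) and the circles (3.84 and below) do not meet.

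The Spry1 site was the only one of the 52 peaks whose 12 libraries with Neurog2 all lay above the 13 without it, as 0.893% of all peaks did, and 0 of 52 lay fully below, as 0.0416% of all peaks did. It is intergenic, 27.0 kb after the Spry1 start (chr3:37666754-37667328). In EGF + bFGF culture the Control libraries measured 3.55, 3.56 and 3.75 and the Neurog2 libraries 4.41, 4.19 and 4.05. In bFGF culture they measured 3.61, 3.54 and 3.55 against 4.15, 4.62 and 4.60. Both pairs of groups were apart from each other.

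With Hmgb2 the picture at Spry1 was alike. The EGF + bFGF Hmgb2 libraries measured 3.57, 3.30, 3.51 and 3.57 and the Neurog2 + Hmgb2 libraries 4.13, 4.34 and 4.67. The bFGF libraries measured 3.84, 3.49 and 3.79 against 4.27, 4.40 and 4.94. The 4 differences were 0.60 (adjusted p = 0.0516), 0.89 (0.0146), 0.89 (0.00114) and 0.83 (0.0114), in the order Neurog2 against Control in EGF + bFGF and bFGF culture, then Neurog2 + Hmgb2 against Hmgb2. The mean was 0.80 ± 0.09 (SE, adjusted p = 9.1e-08), and it passed without any 1 of the 25 libraries. In bFGF culture the call against Control was lost without bFGF Neurog2 replicate 3 (adjusted p = 0.0715) or when only the compared groups were fitted (0.89, adjusted p = 0.10), and the call against Hmgb2 was lost without bFGF Hmgb2 replicate 2 or bFGF Neurog2 + Hmgb2 replicate 3 (adjusted p up to 0.125). The Spry1 promoter itself differed by 0.24 (adjusted p = 0.109).

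Both E-boxes of the kind bound by proneural factors (CAGATG, or CATCTG on the other strand) in this Spry1 site are shown, with the one in the Egfr intron site described next, since these are the 2 sites with the clearest gain. The windows are chr3:37666789-37666914 and chr3:37667188-37667313 at Spry1 and chr11:16831880-16832005 at Egfr, all on the plus strand of mm10, with the E-box in capitals and 60 bases on either side. Of 2929 distal peaks within 10% of the width of the Spry1 peak, 49.1% held CAGATG and 15.9% held at least 2. Of 2490 distal peaks of about the width of the Egfr peak, 52.7% held at least 1. Peaks were not split by their response to Neurog2 for these shares.
Spry1 +27.0 kb, E-box 1: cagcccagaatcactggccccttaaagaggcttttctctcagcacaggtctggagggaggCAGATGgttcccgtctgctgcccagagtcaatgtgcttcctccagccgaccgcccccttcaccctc
Spry1 +27.0 kb, E-box 2: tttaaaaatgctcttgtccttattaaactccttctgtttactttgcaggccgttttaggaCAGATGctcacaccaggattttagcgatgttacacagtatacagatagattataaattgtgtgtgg
Egfr intron 1, E-box: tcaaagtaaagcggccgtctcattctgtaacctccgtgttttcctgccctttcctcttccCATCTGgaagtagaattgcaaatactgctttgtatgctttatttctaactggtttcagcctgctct

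The Egfr site (chr11:16831851-16832498) lay in intron 1, 80.0 kb after the main start and 46.0 kb before an internal start, from which its offset of -46.0 kb is counted. In EGF + bFGF culture the Control libraries measured 4.76, 4.99 and 4.51 and the Neurog2 libraries 5.69, 5.53 and 5.73, without overlap. That difference, 0.90 ± 0.17 (SE, adjusted p = 0.00201), was the largest of the 52 in this comparison. In bFGF culture they measured 4.43, 4.70 and 4.97 against 5.06, 5.04 and 5.14, also without overlap, but the difference of 0.38 did not pass (adjusted p = 0.310).

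On the Hmgb2 background the Egfr gain was smaller and did not pass in either culture. The EGF + bFGF Hmgb2 libraries measured 4.84, 4.68, 4.45 and 5.08 and the Neurog2 + Hmgb2 libraries 5.13, 5.14 and 5.35, without overlap (difference 0.44, adjusted p = 0.0970). The bFGF libraries measured 4.63, 4.70 and 4.80 against 4.55, 5.10 and 5.03, which overlapped (difference 0.18, adjusted p = 0.716). Over the 4 settings the mean was 0.48 ± 0.09 (adjusted p = 1.2e-04), and it passed without any 1 library. Whether the gain depended on the culture was tested as an interaction, -0.39 ± 0.17, which did not pass over all peaks (adjusted p = 0.761). The Egfr promoter differed by 0.05 (adjusted p = 0.668).

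Fgfr2, which has splice forms that select different FGF ligands, carried the only promoter-class peak that fell. It is an intron 1 peak (chr7:130262399-130263223) 1.0 kb before an internal start and 3.38 to 3.45 kb after the upstream starts. In EGF + bFGF culture the Control libraries measured 5.38, 5.54 and 5.40 and the Neurog2 libraries 4.50, 4.61 and 4.93, without overlap (difference -0.76 ± 0.22, adjusted p = 0.0400). With Hmgb2 in the same culture they measured 5.13, 5.83, 5.80 and 5.32 against 5.26, 4.64 and 4.61, with 1 library of each group crossing over (difference -0.68, adjusted p = 0.0375). In bFGF culture the differences were -0.68 (adjusted p = 0.122) against Control and -0.04 (adjusted p = 0.964) against Hmgb2.

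The mean at this Fgfr2 peak was -0.54 ± 0.11 (adjusted p = 4.3e-04), and it passed without any 1 library. The single calls were less firm. That against Control in EGF + bFGF culture was lost without any of the 3 Control libraries or without Neurog2 replicate 1 or 2 (adjusted p up to 0.212) and with quantile normalization (-0.72, adjusted p = 0.0803), and that against Hmgb2 without Neurog2 + Hmgb2 replicate 2 or 3 or Hmgb2 replicate 2 or 3 (up to 0.213). The main Fgfr2 promoter peak, at the upstream starts (chr7:130265751-130266559), differed by 0.12 (adjusted p = 0.326). The peak is shown around its AP-1 motif (TGAGTCA, in capitals, with 60 bases on either side), at chr7:130263004-130263130 on the plus strand. AP-1 motifs are the site type bound by FOS and JUN factors that growth factor signalling induces. Of 2254 promoter peaks of about the same width, 13.9% held TGANTCA. That search allowed any base at N, a wider set than TGACTCA and TGAGTCA. No CAGATG or CATATG E-box was found in this peak.
Fgfr2 intron 1 peak: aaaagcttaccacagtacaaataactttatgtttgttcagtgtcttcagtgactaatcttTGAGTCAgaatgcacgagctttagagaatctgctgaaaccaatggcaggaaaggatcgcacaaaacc

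**Figure D4:**
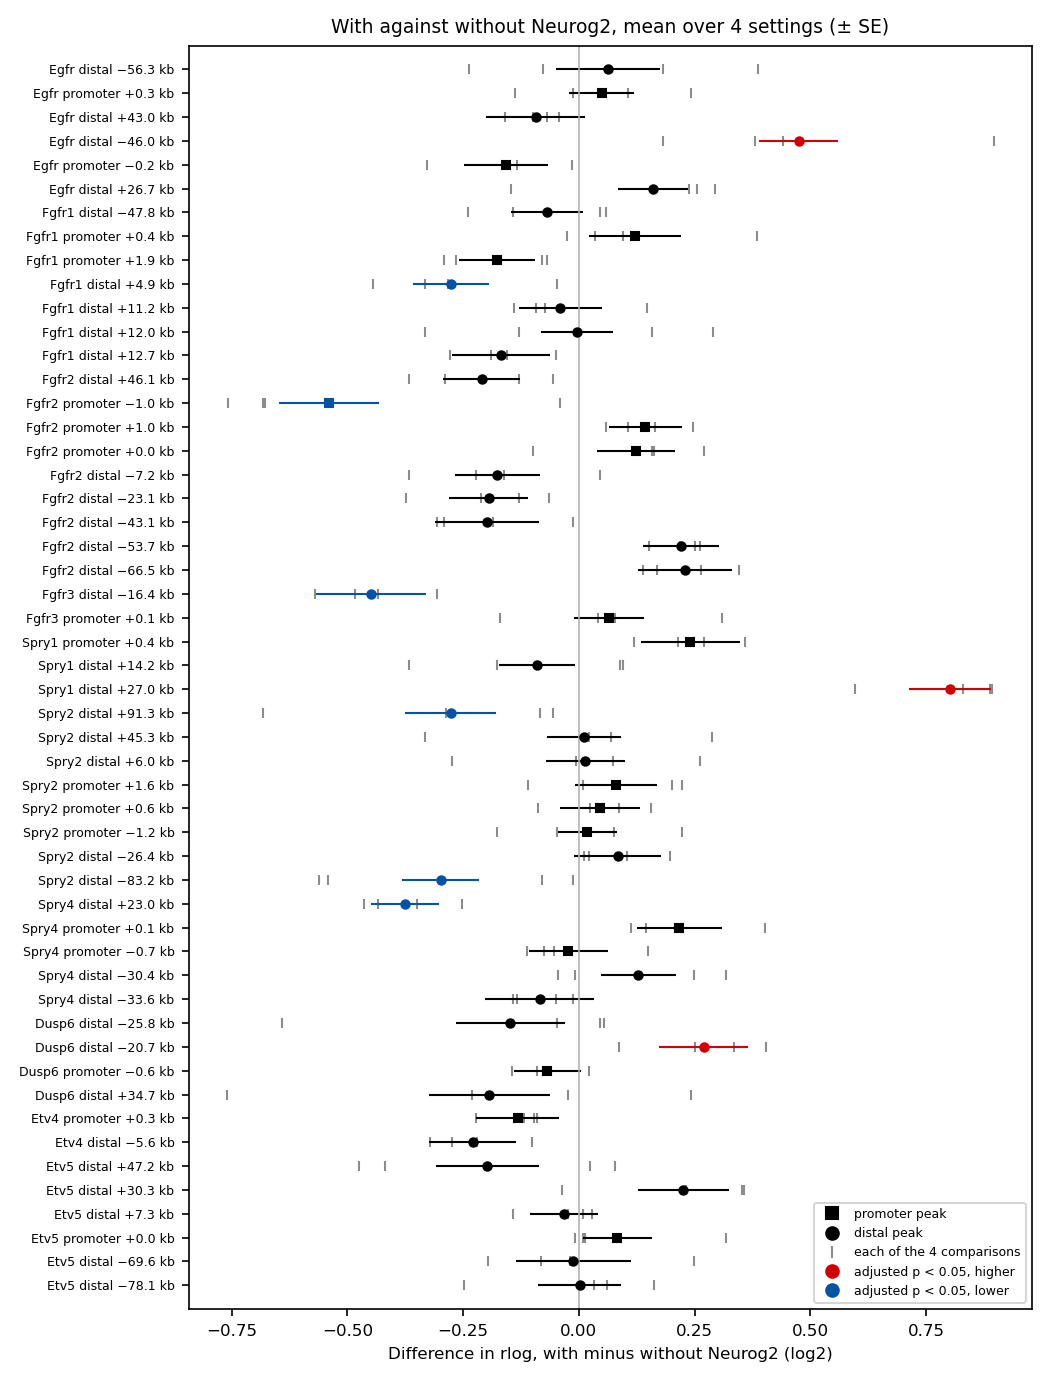
Difference in rlog with against without Neurog2 (x axis, log2) for each of the 52 peaks (rows), averaged over 4 settings. Squares are promoter peaks, circles distal peaks, bars the SE and grey ticks the single comparisons. The 3 red points passed as higher, led by Spry1 at 0.80, and the 6 blue points passed as lower, led by Fgfr2 at -0.54.

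The other receptor sites that fell were distal. The Fgfr3 peak at -16.4 kb had a lowest, median and highest level of 4.84, 5.86 and 6.37 with Neurog2 and 5.77, 6.28 and 6.84 without it, and the mean difference was -0.45 ± 0.12 (adjusted p = 0.0062). The Fgfr1 peak at +4.9 kb from the same internal start as the +12 kb peak (chr8:25536488-25537800) had 6.10, 6.45 and 6.69 with Neurog2. Without Neurog2 it had 6.24, 6.68 and 7.17, with a mean difference of -0.28 ± 0.08 (adjusted p = 0.0148). The ranges overlapped at both, and both calls held without any 1 library.

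Sprouty genes lost signal at 3 distal sites. The Spry4 site at +23.0 kb (chr18:38578315-38578607) had a lowest, median and highest level of 2.97, 3.29 and 3.52 with Neurog2 and 3.49, 3.65 and 3.98 without it. Within each culture and Hmgb2 state the libraries with Neurog2 lay below those without it, and the differences were -0.25, -0.35, -0.43 and -0.46, none of which passed alone. The mean of -0.37 ± 0.07 passed (adjusted p = 3.2e-04) and held without any 1 library.

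The Spry2 site at -83.2 kb (chr14:105979645-105980368) had 4.54, 4.85 and 5.02 with Neurog2 and 4.51, 5.12 and 5.49 without it, with a mean of -0.30 ± 0.08 (adjusted p = 0.0092). It also passed in EGF + bFGF culture for Neurog2 + Hmgb2 against Hmgb2 (-0.54, adjusted p = 0.0311). That call was lost without any of the 3 Neurog2 + Hmgb2 libraries or without Hmgb2 replicate 2 or 3 (adjusted p up to 0.126). The Spry2 site at +91.3 kb (chr14:105805374-105805723), near the edge of the 100 kb window, passed in the same comparison (-0.68, adjusted p = 0.0217) and in the mean (-0.28 ± 0.10, adjusted p = 0.0419). With Neurog2 it had 2.25, 2.55 and 3.03, and without it 2.43, 2.83 and 3.43, so the groups overlapped. The first of these calls was lost without Neurog2 + Hmgb2 replicate 1 or 3 or Hmgb2 replicate 2 or 3 (up to 0.0993).

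Dusp6 had 1 distal site that rose, at -20.7 kb (chr10:99242132-99242946), which is named although it falls outside the 8 smallest p-values. It had 3.66, 4.02 and 4.50 with Neurog2 and 3.35, 3.81 and 4.12 without it, with a mean difference of 0.27 ± 0.10 (adjusted p = 0.0434) and overlapping ranges. It holds 3 CAGATG motifs, as many as 6.88% of 1468 distal peaks of like width hold or exceed. The Dusp6 call and the mean Spry2 call at +91.3 kb were the unstable ones, each lost in 15 of the 25 fits that leave out 1 library, with adjusted p up to 0.0943 and 0.0925. At the Dusp6 promoter the difference was -0.07 (adjusted p = 0.547). No peak of Etv4 or Etv5 passed. Their promoters differed by -0.13 and 0.08, and the smallest adjusted p was 0.0807, for the Etv4 peak at -5.6 kb (-0.23 ± 0.09).

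Marker promoters were compared in the same way, with against without Neurog2 averaged over the 4 settings. Of the 5 neuronal markers listed, 3 had a promoter peak, and Dcx and Rbfox3 had none. Among the 3, Neurod1 (0.74, adjusted p = 4.6e-06) and Tubb3 (0.41, adjusted p = 3.3e-04) rose and Snap25 did not pass (0.05). Of the 4 mural or fibroblast markers measured, 1 fell, Acta2 (-0.44, adjusted p = 8.9e-04), and the median of the 4 was 0.06. The mean level of the neuronal list ran from 4.71 to 5.58 per library. In bulk libraries fewer cells with an open site and less opening per cell cannot be told apart, and the share of any of the changes above that comes with the neuronal markers was not tested.

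Hmgb2 changed none of the 52 peaks by limma. Hmgb2 against Control called 0 of 52 in EGF + bFGF culture (background 0.00219%), with 5 unadjusted (9.17% of all peaks), and 0 of 52 in bFGF culture (background 0.00219%), with 3 unadjusted (3.99%). Neurog2 + Hmgb2 against Neurog2 called 0 of 52 in EGF + bFGF culture (background 0.0153%), with 2 unadjusted (5% of all peaks), and 0 of 52 in bFGF culture (background 0%), with 1 unadjusted (7.12%). The mean Hmgb2 effect called 0 of 52 (background 0.0328%), with 3 unadjusted (10.1% of all peaks).

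The smallest p for Hmgb2 was at the main Spry2 promoter (chr14:105896719-105899309). In Neurog2 cells of the bFGF culture it measured 8.32, 8.04 and 8.27, and in Neurog2 + Hmgb2 cells 7.75, 7.97 and 7.95, without overlap. That difference was -0.32 ± 0.13 (adjusted p = 0.631), and the mean over 4 settings was -0.22 ± 0.06 (adjusted p = 0.299). In EGF + bFGF culture the smallest p belonged to the Spry2 peak at -26.4 kb against Control (0.53 ± 0.18, adjusted p = 0.529) and to the Egfr intron peak against Neurog2 (-0.45, adjusted p = 0.956). In bFGF culture against Control it belonged to the Fgfr1 peak at +12 kb (-0.43 ± 0.16, adjusted p = 1.00). The culture by Neurog2 interaction called 0 of 52 (background 0%), with 5 unadjusted (6.38% of all peaks), and the culture by Hmgb2 interaction called 0 of 52 (background 0%), with 2 unadjusted (4.5%).

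The wider pathway was read only at the main promoter peak of each gene, so its distal sites were not compared. Of 77 listed ligands, receptors, adaptors and kinases, inhibitors and targets, 69 had a promoter peak. Between cultures 0 of these passed (median -0.02, beside 0.01 over the main promoters of 12274 genes), where 0.0644% of all promoter peaks rose and 0.0837% fell. With Neurog2 the median was 0.04 for the 69 and for the 12274 genes. Of the 69, 0 fell and 3 rose, where 3.46% of all promoter peaks fell and 5.13% rose. All promoter peaks include secondary peaks of a gene. Among these 3 were Sos2 (0.32, adjusted p = 0.0043), an exchange factor gene of the adaptor and kinase list, and the ligand gene Fgf10 (0.31, adjusted p = 0.0052), which was 1 of 13 ligands. None of 6 other receptors, 15 inhibitors or 15 targets passed. With Hmgb2 0 of 69 passed (median -0.08, beside -0.06), where 0.0193% of all promoter peaks rose and 0% fell. These counts among the 69 lie near the background shares.

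The other motifs were counted in the same way over all member peaks. AP-1 motifs were in 3 of 17 promoter peaks (18.6% of all promoter peaks) and in 15 of 35 distal peaks (41.9% of all distal peaks). CAGATG was in 5 of 17 (34.6%) and 14 of 35 (42.9%), and CATATG in 0 of 17 (4.59%) and 4 of 35 (8.06%). An ETS motif (CCGGAAGT) was in 0 of 17 (8.61%) and 1 of 35 (0.836%), and a SOX motif (ACAATGG) in 3 of 17 (6.13%) and 6 of 35 (6.96%). Member peaks were somewhat wider, with medians of 944 and 524 bases against 839 and 433, and these shares are not matched for width.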

How the data were processed

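Per the labels, reads were checked with FastQC, trimmed with cutadapt, aligned to mm10 with Bowtie2, and peaks were called with Genrich. Per the study's methods, peaks were called per sample with duplicates and mitochondrial reads removed and were then merged. Reads per merged peak were counted and the authors deposited DESeq2 1.36.0 rlog values (a log2 scale) for 45672 peaks in 25 libraries. The counts were not analysed here, so depth and counting error are unknown. Among other columns, the deposited table holds each peak's width in bases.

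Peaks were assigned to the nearest protein-coding start in the GENCODE annotation of mm10, within 100 kb (promoter: within 3 kb). One model with the 8 groups was fitted to all peaks with limma 3.58.1 in R 4.3.3 (17 residual degrees of freedom, moderated variance). Adjusted p is Benjamini-Hochberg over all peaks, with 0.05 as the limit. Mean effects weighted the 4 viruses or settings equally. The script was tested on simulated data.

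The named peaks were all main promoters, and for each comparison all members that passed (at most the 8 smallest p) or, where none did, the smallest p. Peaks named outside this rule (Dusp6 at -20.7 kb for Neurog2, and Egfr at -56.3 kb, Dusp6 at +34.7 and -25.8 kb and Fgfr3 at -16.4 kb for culture) were chosen after their values were seen. The 10 genes, the gene lists and the motifs were chosen with earlier results of these data known. Alternatives were a replicate block, quantile normalization, leaving out the peaks with the lowest mean levels (a share of 0.25), fitting only the groups compared, a 50 kb limit, and leaving out each library. Sequences came from the GRCm38 assembly, which is mm10. The result for part of the adaptor and kinase list is not reported here.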

Additional observations from a re-analysis of the deposited data

How the results depend on the processing

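Most values kept their direction and their side of the threshold. Under the alternatives the Neurog2 against Control count in EGF + bFGF culture went from 2 peaks to 1 with quantile normalization (Fgfr2 at -1.0 kb lost) and to 3 with the replicate block, without the lowest peaks or with only the groups compared (Spry1 at +27.0 kb gained, adjusted p = 0.0457, 0.0458 and 0.0288), and that in bFGF culture from 1 to 0 when only the groups compared were fitted (Spry1 at +27.0 kb lost). Neurog2 + Hmgb2 against Hmgb2 in EGF + bFGF culture went from 4 to 7 when only the groups compared were fitted. A 50 kb limit kept 45 of the 52 peaks. Leaving out 1 library at a time moved the counts to between 0 and 1 (culture in Neurog2 cells), 0 and 5 (mean culture difference), 1 and 2 and 0 and 1 (Neurog2 against Control in EGF + bFGF and bFGF culture), 1 and 9 and 0 and 1 (Neurog2 + Hmgb2 against Hmgb2 in EGF + bFGF and bFGF culture) and 7 and 11 (mean Neurog2 effect), while the other counts stayed at 0. The count of 9 came without EGF + bFGF Hmgb2 replicate 4, and that of 1 without EGF + bFGF Neurog2 + Hmgb2 replicate 3 or Hmgb2 replicate 2 or 3. The mean Dusp6 call at -20.7 kb and Spry2 call at +91.3 kb were each lost without any 1 of 15 libraries, with differences of 0.23 to 0.33 and -0.33 to -0.23. For Dusp6 these were, in EGF + bFGF culture, Control replicates 1 and 3, Neurog2 2 and 3, Neurog2 + Hmgb2 3 and Hmgb2 1 and 3, and in bFGF culture Control 1 and 2, Hmgb2 2 and 3, Neurog2 + Hmgb2 1 and 3 and Neurog2 2 and 3. For Spry2 they were, in EGF + bFGF culture, Control 1, 2 and 3, Neurog2 1 and 2, Neurog2 + Hmgb2 1 and 3 and Hmgb2 2 and 3, and in bFGF culture Control 2 and 3, Hmgb2 2, Neurog2 + Hmgb2 2 and Neurog2 1 and 3.

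The libraries share replicate numbers, and whether these numbers pair them is not stated. Deviations of same-numbered libraries from their group means correlated at 0.05 on average (-0.47 to 0.47), and 7 of 25 libraries correlated best with their own number. Libraries of other groups with other numbers correlated at -0.02 on average (-0.45 to 0.51). The ranges are wide, so these values cannot decide whether the numbers mark a pairing or a batch. A replicate block raised the Neurog2 + Hmgb2 against Hmgb2 count in EGF + bFGF culture to 8 and the mean Neurog2 count from 9 to 11, where the promoters of Spry1 (0.27) and Spry4 (0.25) also passed.

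Values that changed sign were all near 0 and never passed. With the block the Fgfr1 promoter culture difference was 0.0257. With quantile normalization it was 0.0066, the Neurog2 effect at the Spry2 promoter was -0.0143, and the Hmgb2 effect was 0.0461 at Fgfr1 and 0.0064 at Spry1. Without single libraries the culture difference ran from -0.0478 to 0.0398 (Fgfr1), -0.1031 to 0.0089 (Spry1) and -0.0161 to 0.0501 (Etv5). The Neurog2 effect at Spry2 ran from -0.0075 to 0.0396, and the Hmgb2 effect from -0.045 to 0.0425 (Fgfr1), -0.0681 to 0.0055 (Fgfr2), -0.1057 to 0.0063 (Spry1) and -0.0109 to 0.064 (Etv5). The cause of these changes was not tested. Without the peaks with the lowest mean levels (a share of 0.25) the Spry2 site at +91.3 kb and the Spry4 site at +23.0 kb were not fitted, so they have no value there. Depth is unknown, so no limit from counting can be given, and 3 or 4 libraries a group limit what can be detected.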
